A study of Mus musculus with 8 samples.

Results

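Cbln1, Mlc1, Sorcs3, Tmem132e, Coch, Spock1, Cuzd1 and Mab21l3 are 8 genes whose array signals in the adult mouse oviduct were markedly lower after neonatal treatment with genistein (Gen), an isoflavone of soy that binds estrogen receptors. They were chosen by name for that difference, with no fixed limit on its size. They were found among the 27669 genes of the array, where 14 of the 41173 probes tested measure them. Mab21l3 stands under the older name BC037703 in the files and was found through its RefSeq accession. Because the same arrays chose the genes, their differences between the groups are a description and were not tested.

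Newborn females of the outbred CD-1 stock received daily subcutaneous injections from PND1 to PND5, of corn oil alone in the control group or of Gen at 50 mg/kg/day in corn oil in the Gen-treated group. All mice of both groups were superovulated and mated as adults, at 6–8 weeks of age. Oviducts were taken on GD2, 48 hr after hCG, and the embryos were removed. Both oviducts of 1 mouse made 1 sample, each sample was hybridized to 1 Agilent array with the dye Cy3, and there were 4 mice per group. The number of probes that the scanner software called well above background was 25391–28949 in controls and 29539–31486 in Gen-treated mice. Controls and Gen-treated mice were on separate slides, 4 arrays each, and in every result below the slide cannot be told apart from the treatment.

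The names of the genes come from tissues other than the oviduct. Cbln1 is a secreted protein of cerebellar synapses that joins neurexins on the sending cell to delta glutamate receptors on the receiving cell. Mlc1 is a membrane protein of astrocytes, is mutated in a leukodystrophy with cysts, and works with the adhesion protein Hepacam and the chloride channel Clcn2. Sorcs3 is a sorting receptor with a VPS10 domain, of the family of sortilin. Tmem132e is a single-pass membrane protein needed for hearing. Coch, or cochlin, is an abundant secreted matrix protein of the inner ear, and Spock1, or testican, is a matrix proteoglycan of the SPARC family. Cuzd1 is a membrane protein with CUB and zona pellucida domains, known from pancreatic secretory granules and, as its older names show, from the uterus. Mab21l3 belongs to the Mab-21 family, which also holds the DNA sensor Cgas.

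Each probe is a single strand of 60 bases, and what it binds decides which transcripts its signal can report. The sequences below are those of the brightest probe of each gene, which gives the gene's values, and of the further probes of Cbln1 and Coch that are compared with them. They were copied from the deposited probe table, 5′ to 3′. The first 30 bases are shown except for Cbln1 probe 2, Coch probe 2 and Cuzd1, which are given whole.
Cbln1 probe 1: caaggaggttcttcgggacgcttcttcttc
Cbln1 probe 2: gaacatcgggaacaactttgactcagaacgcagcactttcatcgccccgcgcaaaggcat
Mlc1: cttgcacttctaattttagagggatgtttt
Sorcs3 probe 1: agtatcagaagggtttctaaagacccttct
Tmem132e: atcttgctgcagacagaacatttgagtgtt
Coch probe 1: catatatcaagcttcttttgtagtgtgttt
Coch probe 2: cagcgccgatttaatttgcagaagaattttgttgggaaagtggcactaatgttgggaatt
Coch probe 3: ggcaaacaagacatctttggctgaaggtaa
Spock1 probe 1: ctctaattctacaaactgttcttactaaca
Cuzd1: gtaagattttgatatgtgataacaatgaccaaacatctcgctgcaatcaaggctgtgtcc
Mab21l3 probe 1: ttcttcccaaatttgcttaacaaagtaata

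Signals below are scaled intensities, in arbitrary units, on arrays 1–4 of a group in that order, and group means were taken on the log2 scale. The fold change of log2 signals is Gen minus control, with its standard error (SE) from limma, and n = 4 mice per group throughout. At the brightest probe of each of the 8 genes, the 4 Gen arrays lay below the 4 control arrays, as did 17.9% of all probes. Among probes well above background on all 4 control arrays, as these 8 were, 7.39% lay so, and 1.2% had a log2 fold change of -1 or below. Since the genes were chosen on this contrast, nothing is read from these shares. The median log2 fold change of the 8 genes was -2.76, and it was also -2.76 with Cuzd1, which has only a bound, at that bound. The other 7 genes had values from -3.06 to -1.57. The median over all probes was -0.06. In whole oviducts, fewer cells of a type and less RNA per cell cannot be told apart.

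**Figure D1:**
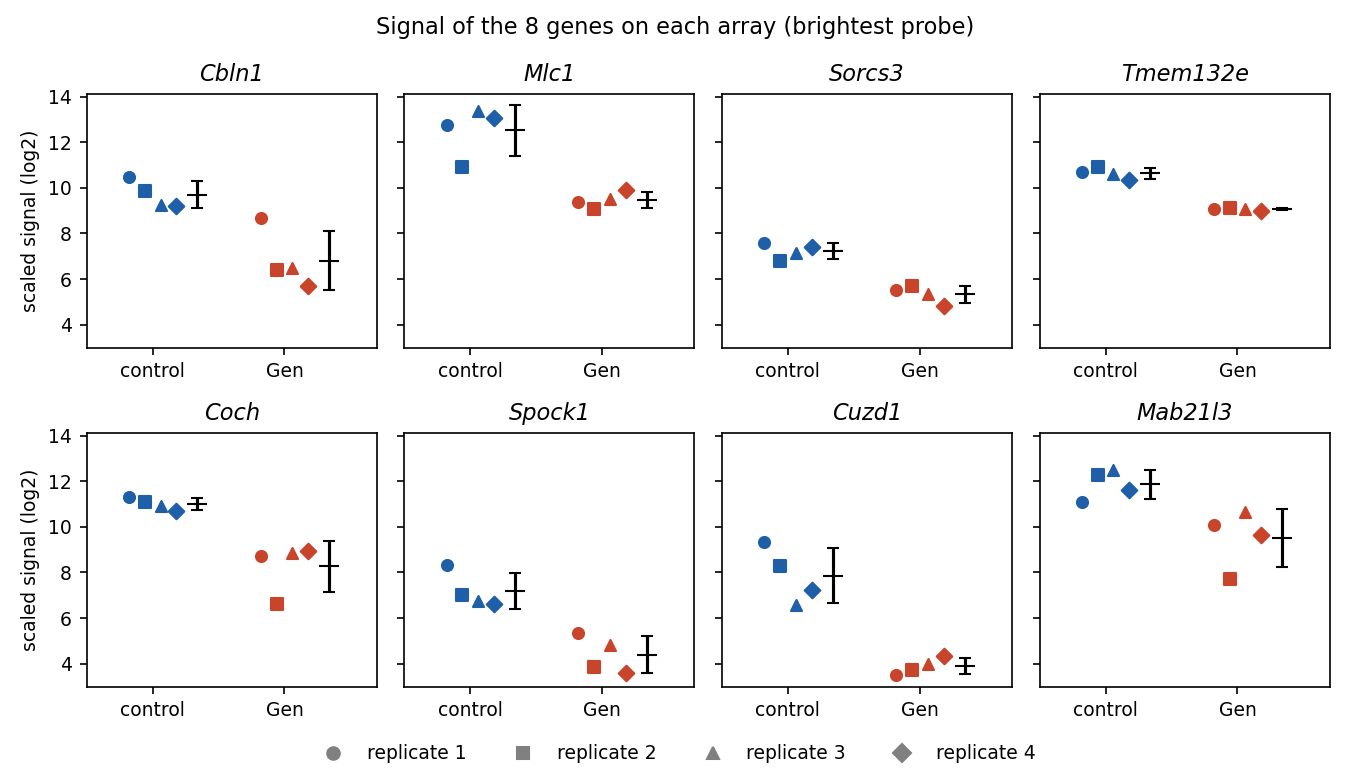
Scaled log2 signal of the brightest probe of each of the 8 genes on each array, with controls in blue and Gen-treated mice in red. Symbols mark the replicate number, and the black bar at the right of each group is the mean ± SD of its 4 arrays. The 2 groups do not overlap in any panel, and Cuzd1 on the Gen arrays was not well above background.

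Among the genes known from synapses and glia, Cbln1 probe 1 lies at chr8:86059880-86059939 (mm7, minus strand). Its signals were 1406, 932, 608 and 587 in controls and 413, 83.4, 89.1 and 52.3 in Gen-treated mice. The means were 827 and 113, and the log2 fold change was -2.88 (SE 0.62). Gen mouse 1 stood well above the other Gen mice and came within 0.51 log2 of the lowest control. Without that mouse the log2 fold change was -3.50. The spread was wider in Gen-treated mice (SD 1.30) than in controls (SD 0.59). Cbln1 probe 2, at chr8:86062161-86062220, had signals of 74.8, 75.2, 47.0 and 41.9 in controls and 31.5, 18.7, 10.3 and 11.3 in Gen-treated mice. The groups were apart there too, and Gen mouse 1 was again the highest of its group, but only 3 control arrays and 2 Gen arrays had the probe well above background. Its log2 fold change was -1.83 (SE 0.38).

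Mlc1 has 1 probe, at chr15:89038294-89038353 (mm7, minus strand). Its signals were 6867, 1912, 10572 and 8571 in controls and 664, 536, 729 and 951 in Gen-treated mice. Control mouse 2 was far below the other controls, yet above each Gen mouse. The log2 fold change was -3.06 (SE 0.51), an 8.33-fold difference between means of 5873 and 705. The controls spanned a 5.53-fold range and the Gen-treated mice a 1.77-fold range, the reverse of the pattern of Cbln1.

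Sorcs3 has 2 probes that were well above background on all 8 arrays. Probe 1, at chr19:48705704-48705763 (mm7, plus strand), gave 193, 109, 139 and 168 in controls and 45.3, 52.2, 40.3 and 28.5 in Gen-treated mice. Probe 2 is placed over chr19:48697933-48703125, a span of 5193 bases for a probe of 60, so that it crosses at least 1 intron. It gave 210, 116, 122 and 137 in controls and 30.2, 43.0, 34.3 and 34.1 in Gen-treated mice. The controls stood in the same order at both probes, 1 highest and 2 lowest. The log2 fold change was -1.88 (SE 0.24) at probe 1 and -2.02 (SE 0.21) at probe 2, a difference of 0.14. Probe 1 gave -1.15 after normexp and -1.18 with the floor.

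Tmem132e had the tightest values of the 8 genes. Its difference was the smallest of the 8 with the processed signals, but not with a floor on low signals or after normexp. Its probe, at chr11:82527385-82527444 (mm7, plus strand), gave 1646, 1931, 1576 and 1293 in controls and 543, 554, 546 and 505 in Gen-treated mice. The Gen-treated mice differed from each other by 1.10-fold at most. The log2 fold change was -1.57 (SE 0.14), from a mean of 1595 to 537, and the gap between the lowest control and the highest Gen mouse was 1.22 log2.

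Of the matrix genes, Coch has 3 probes. Probe 1, at chr12:49618352-49618411 (mm7, plus strand), gave 2545, 2160, 1911 and 1661 in controls and 421, 97.7, 461 and 484 in Gen-treated mice. Probe 2, at chr12:49611476-49611535, gave 756, 727, 652 and 618 in controls and 187, 36.1, 159 and 116 in Gen-treated mice. Both probes put Gen mouse 2 far below the other 3, and both put the controls in the same order. Their log2 fold changes were -2.72 (SE 0.50) and -2.70 (SE 0.47). Probe 3, at chr12:49614672-49614729, lies on the minus strand, opposite to the gene and to the other Coch probes, and was well above background on no array. Its signals were 10.6, 31.9, 13.2 and 15.1 in controls and 11.1, 2.95, 9.01 and 19.1 in Gen-treated mice, with overlapping groups and a log2 fold change of -0.89 (SE 0.58).

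Spock1 probe 1 has 40 of its 60 bases placed, at chr13:56517618-56517657 (mm7, minus strand). It gave 319, 130, 109 and 99.5 in controls and 40.1, 14.4, 27.9 and 12.2 in Gen-treated mice. All 4 controls were well above background, and 2 of the Gen-treated mice were. The log2 fold change was -2.79 (SE 0.49), and the groups were 1.31 log2 apart. It was -1.51 after normexp background correction and -1.14 with a floor on low signals. Spock1 probe 2, at chr13:56526466-56526525, was well above background on no array and gave means of 8.57 and 3.79. Its log2 fold change of -1.18 was close to the median of -1.16 over the 7855 probes of the array that were well above background nowhere.

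Cuzd1 was the gene whose signals in Gen-treated mice were at background. Its probe, at chr7:127663447-127663506 (mm7, minus strand), gave 636, 313, 95.1 and 151 in controls and 11.3, 13.3, 15.8 and 20.0 in Gen-treated mice. It was well above background on each control array and on no Gen array, and for this reason the difference has only a bound. With the scaled processed signals, the Gen-treated mice had a Cuzd1 signal at least 13.8-fold lower than controls. This holds for that handling of background alone, and not for the floor or normexp values below. For this bound the control mean of 231 was divided by the dimmest signal that still counted as well above background on each Gen array, or by the signal of Cuzd1 itself where that was higher. The size of the difference depends on how background is handled, at -1.81 on the log2 scale with all low signals raised to a common floor and -2.12 after normexp background correction, both smaller than those of Mlc1, Cbln1, Coch and Mab21l3 under the same settings. The controls spanned a 6.69-fold range, the widest of the 8 genes, and control mouse 3 was the lowest.

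Mab21l3 probe 1, at chr3:101608681-101608740 (mm7, minus strand), gave 2157, 4991, 5771 and 3091 in controls and 1090, 208, 1590 and 808 in Gen-treated mice. Probe 2, at chr3:101607907-101607966, gave 153, 556, 768 and 335 in controls and 124, 24.1, 197 and 53.7 in Gen-treated mice. The mice of each group stood in the same order at both probes, with control 3 and Gen 3 highest. At probe 2 the groups overlapped, since Gen mouse 3 was above control mouse 1. The log2 fold changes were -2.34 (SE 0.62) and -2.36 (SE 0.73). Gen mouse 2 was the lowest at both probes, and without it the log2 fold change of probe 1 was -1.73.

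**Figure D2:**
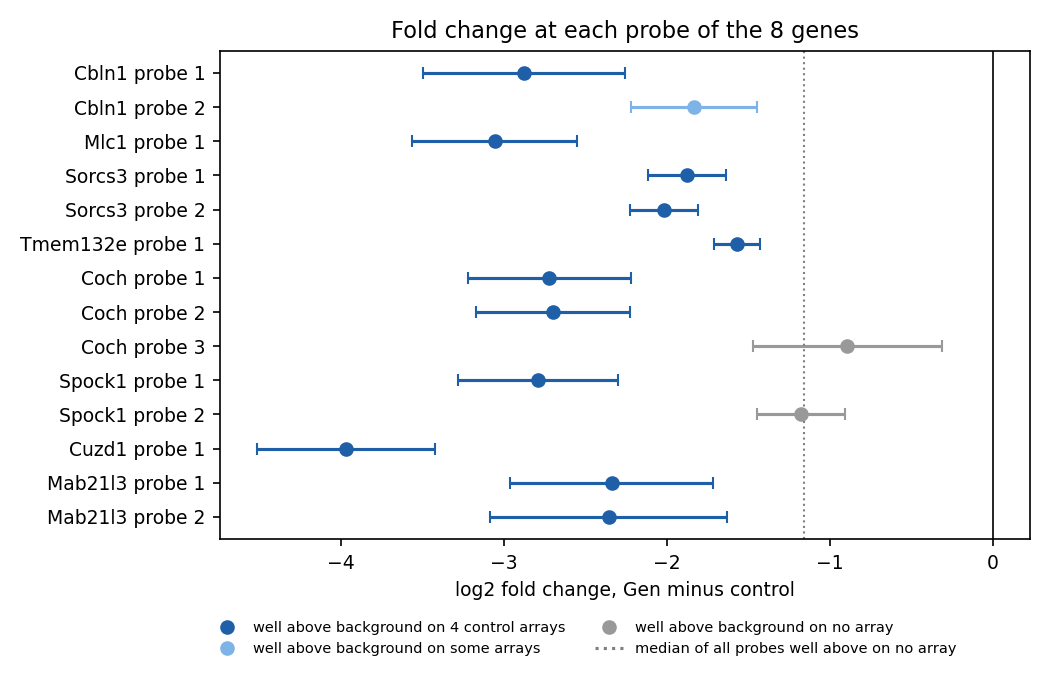
Log2 fold change, Gen minus control, at each of the 14 probes, with the SE from limma as the bar (n = 4 mice per group). The dotted line is the median of the probes well above background on no array (-1.16), and the 2 gray probes of Coch and Spock1 lie near it while the dark blue probes lie left of -1.5. The value plotted for Cuzd1 is the fitted one, which is no bound.

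Over all 14 probes, each was lower in Gen-treated mice, and 12 had groups that did not overlap. Of all probes on the array, 17.9% had the Gen arrays all below the control arrays. The 12 include Spock1 probe 2, which was well above background on no array. Since the genes were chosen on this contrast, nothing is read from the count. No spot was saturated or marked as an outlier. Of the 6 further probes, 4 showed a smaller fold change than the brightest probe of their gene. The 2 probes of Mab21l3 and the first 2 of Coch differed by 0.02 log2 in their fold changes, while those of Cbln1 differed by 1.04 and those of Spock1 by 1.61. The weaker probes of Cbln1 and Spock1 were near the background of the array.

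The 8 genes did not vary as 1 block among mice of the same treatment. Each array was compared with the mean of its own group, gene by gene, on the log2 scale. Control mouse 1 was the highest control in 5 of the 8 genes and above the control mean in 7, the exception being Mab21l3, in which it was lowest. Control mouse 4 was the lowest control in 4 genes. Among Gen-treated mice, mouse 2 was the lowest in 3 genes and the highest in 2, and mouse 4 was the lowest in 4 and the highest in 3. No Gen mouse was therefore low in every gene. Cuzd1 in Gen-treated mice was not well above background, so its order there is not one of measured levels.

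Cbln1 and Spock1 shared the order of mice in both groups, 1, 2, 3 and 4 from highest to lowest in controls and 1, 3, 2 and 4 in Gen-treated mice, of which 2 were not well above background for Spock1. In Gen mouse 1, Cbln1 was 1.87 log2 above its group mean and Spock1 was 0.93 above. Coch and Mab21l3 shared a low Gen mouse 2, at -1.66 and -1.82 log2 from their group means. In the same mouse Sorcs3 was at 0.36 and Tmem132e at 0.05. Mlc1 in control mouse 2 was at -1.62, where Cuzd1 was at 0.44. Over the 28 pairs of genes, the correlation of these deviations over the 8 arrays ran from -0.79 (Mlc1 and Tmem132e) to 0.84 (Cbln1 and Spock1), with a median of 0.16, and 20 pairs were above 0. In 8 pairs it was above 0 in each group taken alone. All pairs share the same arrays, and these values are a description.

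**Figure D3:**
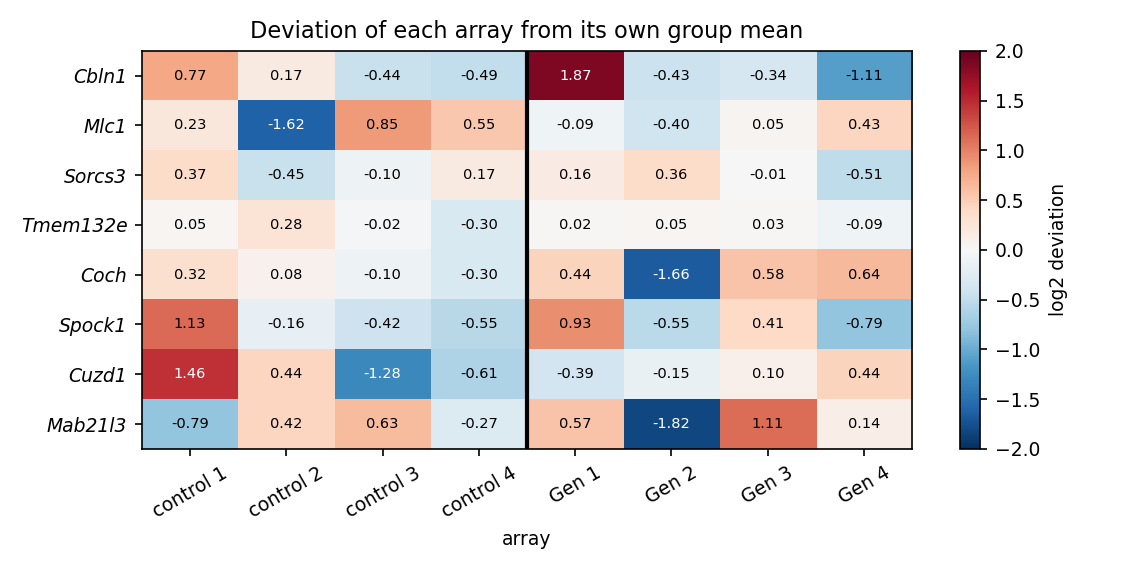
Deviation of each array (columns) from the mean of its own group, in log2 units, for the brightest probe of each gene (rows, in italics), with red above and blue below the group mean. The deepest cells are Cbln1 in Gen 1 (1.87), Mab21l3 in Gen 2 (-1.82), Coch in Gen 2 (-1.66) and Mlc1 in control 2 (-1.62), and no column has a single color.

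The mean of the 8 genes, each as log2 signal minus its control mean, was 0.44, -0.10, -0.11 and -0.23 on the control arrays and -2.21, -3.23, -2.41 and -2.76 on the Gen arrays. Of the 8 genes, Spock1 and Coch lay nearest to this mean, with root mean square differences of 0.43 and 0.49 log2 over the 8 arrays, and Cuzd1 lay farthest, at 1.17. Among 14273 other genes well above background on all 4 control arrays, the 5 nearest were Myh7 (0.34), Myh6 (0.35), Rln1 (0.44), Lgi1 (0.50) and Fam189a1 (0.56). Myh7 and Myh6 are the heavy chains of cardiac myosin, are near-identical in sequence, and can share transcripts on a probe. Rln1 is the hormone relaxin, and Lgi1 is a secreted protein of synapses.

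Myh7 had signals of 13476, 8735, 11374 and 14831 in controls and 3637, 949, 2218 and 1911 in Gen-treated mice. Rln1 gave 758, 695, 866 and 476 in controls and 205, 53.4, 214 and 76.4 in Gen-treated mice. Lgi1 gave 809, 1252, 675 and 787 in controls and 295, 104, 293 and 123 in Gen-treated mice. In these 3 genes Gen mouse 2 was the lowest, as in the mean of the 8 genes by which they were selected, and the groups did not overlap.

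Relatives, binding partners and domain relatives of the 8 genes played no part in choosing them and were tested with limma, with p-values adjusted over all probes. Detected means well above background in all 4 mice of 1 group or of both. Of all 27669 genes, 14.9% were called lower in Gen-treated mice at an adjusted p under 0.05 and 2.36% higher, and dim probes were lower as a class. Of the 19247 detected genes, 2.18% were called lower and 3.16% higher. Of the 80 relatives, 77 had a probe and 52 were detected. Among these 52 genes 2 were called lower and 2 higher, and the median log2 fold change was 0.00, against 0.03 over all detected genes. A further 4 relatives called lower were not detected. None of the 52 was called in either direction when dim probes were left out of the test, after quantile normalization or with the replicate block.

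The synaptic relatives of Cbln1 were mostly too dim to compare. Of 11 cerebellins, C1q-like proteins, neurexins and delta receptors with a probe, 2 were detected and 0 were called. Nrxn2, a neurexin, had mean signals of 1415 and 1171 (control and Gen) (log2 fold change -0.27, SE 0.18, adjusted p = 0.373 by limma). Cbln2, Cbln4, C1ql1 and Grid1 were well above background on no array. Cbln3 was well above background on 1 array of each group, so that Cbln1 was the one cerebellin detected.

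All 10 listed partners of Mlc1 were detected, Hepacam2 only through the Gen arrays. Hepacam, the adhesion protein that carries Mlc1 to cell junctions, had signals of 1866, 1815, 1018 and 2044 in controls and 1712, 1114, 2334 and 2284 in Gen-treated mice. These groups overlapped, and differed by 0.13 on the log2 scale (SE 0.31, adjusted p = 0.820 by limma). Atp1b1, a subunit of the sodium pump, fell from 15635 to 9644, by 0.70 on the log2 scale (SE 0.17, adjusted p = 0.0255 by limma). Gpr37, an orphan receptor of glia, rose at its brightest probe from 145 to 296, by 1.03 on the log2 scale (SE 0.27, adjusted p = 0.0351 by limma). With the mean of all Gpr37 probes the log2 fold change turned to -0.39. The median of the 10 partners was 0.25.

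For Sorcs3, 10 of 12 related sorting receptors, neurotrophins and neurotrophin receptors were detected and 0 were called, with a median log2 fold change of -0.18. Sort1, or sortilin, had signals of 12835 and 13691 (0.09 on the log2 scale, SE 0.17, adjusted p = 0.761 by limma), and Sorcs2 had 3660 and 3130 (log2 fold change -0.23, SE 0.21). Sorcs1 was not detected. Of the other 4 Tmem132 genes, Tmem132a and Tmem132c were detected and 0 were called. Tmem132a had signals of 13589 and 12261 (log2 fold change -0.15, SE 0.12, adjusted p = 0.470 by limma).

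Among 16 relatives of Coch, with LCCL or von Willebrand A domains or from the inner ear matrix, 11 were detected and 0 were called, with a median of -0.21. Otog, Tectb and Oc90 were detected only through the Gen arrays. Matn2, a matrilin, had signals of 34933 and 54233 (log2 fold change 0.63, SE 0.18, adjusted p = 0.0529 by limma). Vit, or vitrin, which shares the domains of Coch, had 6675 and 4827 (log2 fold change -0.47, SE 0.19, adjusted p = 0.148 by limma). For Spock1, 6 of 7 SPARC family genes were detected and 0 were called, with a median of 0.00. Sparcl1, a matrix protein also called hevin, had signals of 265442 and 264962 (adjusted p = 0.993 by limma), and Spock2 had 2768 and 2964 (log2 fold change 0.10, SE 0.18, adjusted p = 0.762 by limma).

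Of 11 CUB and zona pellucida domain relatives of Cuzd1 with a probe, 8 were detected, and Dmbt1 was called higher. Dmbt1 is a secreted mucosal protein with both kinds of domain. Its signals were 37.5, 50.9, 58.3 and 110 in controls and 889, 652, 173 and 216 in Gen-treated mice, with no overlap. In controls 2 of the 4 arrays had it well above background. Its fitted log2 fold change was 2.70 (SE 0.58, adjusted p = 0.0236 by limma), and 2.36 with a floor on low signals and 1.63 after normexp background correction, where it was not called. Dmbt1, Zp2 and Umod were detected only through the Gen arrays. Zp2 and Zp3, which encode proteins of the egg coat, had signals of 30.7 and 272 and of 292 and 1365, and were not called (adjusted p = 0.121 and 0.131 by limma). Cdcp1, Eng and Tgfbr3 were at -0.43, -0.26 and -0.24 on the log2 scale, and Cubn was at 0.33. Of the Mab-21 family, 3 of 6 genes with a probe were detected, and Itpripl1, an ITPRIP-like membrane protein, fell from 11790 to 6809, by 0.79 on the log2 scale (SE 0.22, adjusted p = 0.0427 by limma). Cgas had signals of 296 and 353.

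**Figure D4:**
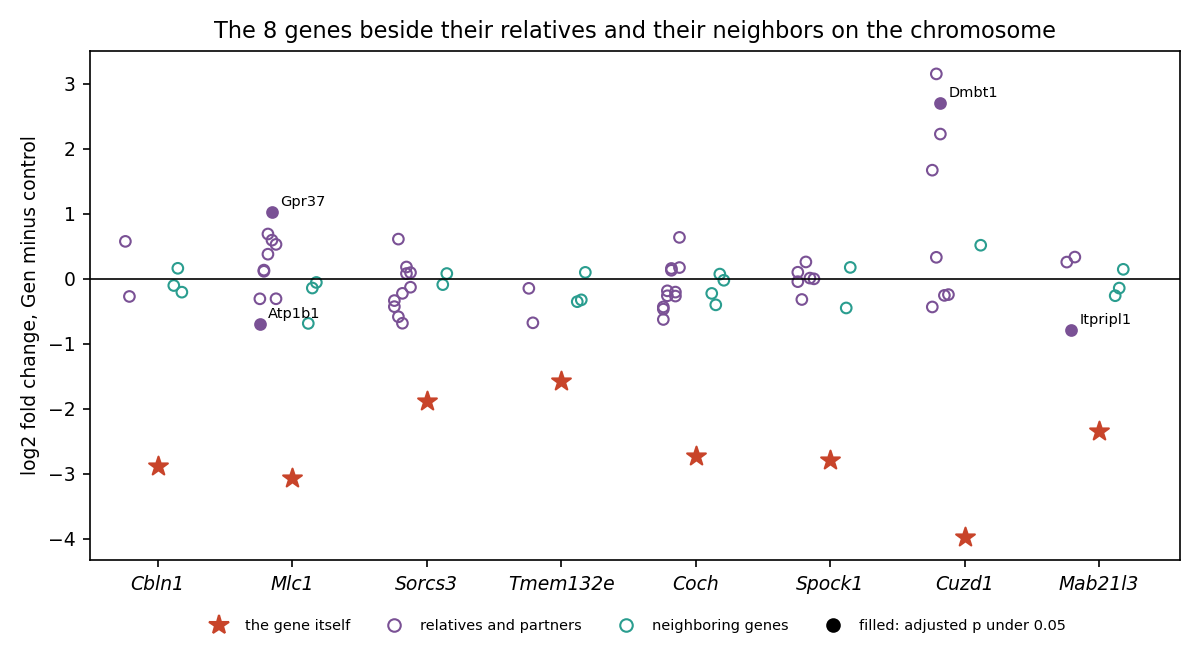
Log2 fold change, Gen minus control, for each of the 8 genes (red stars) beside its detected relatives and partners (purple) and its detected neighbors on the chromosome (green), 1 point per gene at its brightest probe. Filled points have a limma adjusted p under 0.05 (4 relatives, 0 neighbors), and each star, which was used to choose the gene and is shown with no test, lies below the relatives and neighbors of its own column.

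The 8 genes lie on 8 chromosomes. The nearest 2 genes with a probe on each side of each, in the order of the RefSeq gene table, gave 32 neighbors, of which 21 were detected. Of these 21 genes 0 were called lower and 0 higher by limma, against 2.18% and 3.16% of all detected genes. In 21 genes, 0 calls lie near those shares, and nothing is read from them. At an unadjusted p under 0.05 there were 5 of the 21 (0 without control replicate 2, 1 without scaling, and 2 to 3 with any other array left out). The share of all genes at that level was not computed. The median log2 fold change of the 21 genes was -0.11. A further 3 neighbors called lower were not detected. Beside Cbln1, Lonp2 had signals of 37086 and 34477. Beside Coch, Ap4s1 had 25847 and 22090. Beside Mlc1, Trabd had 16888 and 15285. None of these 3 was called, and their limma adjusted p-values were 0.669, 0.177 and 0.441. Pim3, also beside Mlc1, had -0.69 on the log2 scale (SE 0.26, adjusted p = 0.128 by limma). Hnrnpa0 beside Spock1 had -0.45 on the log2 scale (SE 0.17, adjusted p = 0.114 by limma). Gsto2 beside Sorcs3 was at 0.08 and Cct6b beside Tmem132e at -0.33, while Fam24b, the 1 detected neighbor of Cuzd1, was well above background only on the Gen arrays. Ttll8 beside Mlc1 was also detected only through the Gen arrays.

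The 250 bases before the start of the gene were available from RefSeq (GRCm38.p6) for 7 of the 8 genes, all but Cbln1, and were searched on both strands for short motifs. The estrogen response element palindrome GGTCANNNTGACC was in 0 of the 7 and in 0.0639% of 32851 promoters. Its half-site GGTCA was in the sequence of Cuzd1 alone, against 35.2% of promoters, and stood there 4 times, which 0.259% of promoters matched or exceeded. GGGCGG was in those of Tmem132e, Coch, Spock1 and Mab21l3 (32.7% of promoters), CCAAT in those of Mlc1, Sorcs3 and Mab21l3 (33.8%), and TATAAA (12.4%) and TAATCC (6.25%) in none. The GC content ran from 48.0% (Mlc1) to 75.6% (Tmem132e), around a median of 52.4% over all promoters. The sequence of Cuzd1 at chr7:131322293-131322542 (GRCm38.p6, minus strand) is shown with the half-sites, on either strand, in capitals.
Cuzd1 upstream: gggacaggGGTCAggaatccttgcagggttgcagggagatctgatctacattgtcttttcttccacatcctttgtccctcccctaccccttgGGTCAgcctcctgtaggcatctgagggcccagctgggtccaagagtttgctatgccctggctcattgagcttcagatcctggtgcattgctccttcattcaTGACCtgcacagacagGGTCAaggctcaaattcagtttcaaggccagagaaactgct
These matches are descriptions of the letters, not of binding.

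Marker genes of cells that an oviduct sample could hold were set beside the 8 genes. Of 131 markers, 116 were detected. By limma 0 of these 116 were called lower and 12 higher, against 2.18% and 3.16% of all detected genes. A further 2 markers called lower were not detected. At an unadjusted p under 0.05 there were 29 of the 116, and the share of all genes at that level was not computed. When dim probes were left out, 2 were called higher. Of 14 neuron markers, 9 were detected and 0 called, and of these Elavl3 and Elavl4 passed only through the Gen arrays. Uchl1, the brightest, had signals of 2160 and 6542 (1.60 on the log2 scale, SE 0.47, adjusted p = 0.0554 by limma), with groups that did not overlap. On the same scale Prph was at 0.59, Syt1 at 0.26, Syp at 0.01, Stmn2 and Rbfox3 at -0.11, and Tubb3 at -0.62, all of them well above background in each of the 8 mice. Of the 10 glial markers detected, 2 were called, both higher, among them Mbp at 0.55. Cnp had a log2 fold change of -0.69 (adjusted p = 0.0629 by limma) and Pmp22 one of -0.32 (adjusted p = 0.0870 by limma). For the astrocyte marker Gfap, 2 control arrays and 0 Gen arrays were well above background, so it was not detected. Its signals were 29.6 and 11.4, with groups that did not overlap (adjusted p = 0.0628 by limma). The log2 fold change of -1.37 lay in the direction of Mlc1, and also in that of dim probes as a class. Probes well above background on no array had a median of -1.16 and a 10th percentile of -1.39. No neuron or glial marker was called lower, against 2.18% of all detected genes, and nothing is read from this in lists so short. The part of these markers in the values of the neural-type genes was not tested.

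The markers of secretory epithelium had a mean log2 level of 15.07–15.65 in controls, against 14.75–15.06 in Gen-treated mice. This lay in the direction of the 8 genes, with 0 of 9 called and a median log2 fold change of -0.17, but the 9 markers did not move together. Slc26a4 was at -2.35 (SE 1.05), with control signals of 430, 325, 9765 and 413, so that control mouse 3 stood far above the other controls. Krt19, Krt8, Pax8 and Epcam were at -0.47, -0.31, -0.28 and -0.17. Krt18, Ovgp1, Cdh1 and Ltf were at 0.01, 0.06, 0.30 and 0.37. Smooth muscle markers stood at 15.43–15.87 and 15.26–15.51 (0 of 10 called, median -0.26). The medians were -0.05 for ciliated epithelium (0 of 12 called), -0.15 for fibroblasts (0 of 9), 0.21 for endothelium (0 of 9), 0.18 for mesothelium (0 of 8) and -0.06 for squamous epithelium (0 of 8). Other lists moved up. Of 10 markers of B and plasma cells 3 were called higher, led by Jchain (log2 fold change 2.01) and Mzb1 (1.34), and of 10 macrophage markers 2 were, Itgam (0.74) and Adgre1 (0.66). Of 9 markers of ovarian and cumulus cells detected 4 were called higher, led by Cyp11a1 (4.43) and Hsd3b1 (4.18), and 1 of 4 of uterine epithelium, Cxcl15, with signals of 134 and 2669 and 3 of the 4 control arrays well above background. The part of the makeup of the tissue in the values of the 8 genes was not tested.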

How the data were processed

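Oviduct RNA of 4 control and 4 Gen-treated mice was measured on 1-color Agilent whole mouse genome arrays. The authors deposited Feature Extraction 9.5 output, and the values used are its processed signals, linear intensities after background adjustment and detrending and before any scaling between arrays. The deposited series table held equal values in all 45018 spots. The Rosetta Resolver step was not applied. Groups and replicate numbers came from the labels. That each sample was 1 mouse comes from the design text of the series.

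Control spots (1639) and outlier spots were dropped, repeated spots were averaged as log2 signals, and arrays were scaled to the mean of their 75th percentiles. Groups were compared with lmFit and eBayes (R 4.3.3, limma 3.58.1), with Benjamini-Hochberg adjustment over 41173 probes and a threshold of 0.05. Each gene was represented by its brightest probe (highest mean log2 signal). Names came from RefSeq tables (GRCm38.p6) by accession for 22951 probes and by name or synonym for 9768. Probe positions, on mm7, come from the array design. Exons and untranslated regions are not given, as no genome was used here. Plots were drawn with matplotlib 3.10.9. Of these steps, only the limma fit, and the t-test used as an alternative, were tried on simulated arrays with independent noise. Those arrays lacked the lower values of dim probes as a class.

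The 8 genes and the lists of relatives, neighbors and markers were chosen with earlier results of these data known. In a list of relatives the genes named are those called, up to 4, or else the detected gene with the highest mean signal, in marker lists the same with up to 2, and the genes of nearest pattern are the 5 with the smallest root mean square difference. Hepacam, Sorcs2, Vit, Spock2, Cgas, Zp2, Zp3, Pim3, Cdcp1, Eng, Tgfbr3, Cubn, Cnp, Pmp22, the neuron markers other than Uchl1 and the undetected genes were named after their values were seen. So were the secretory epithelium markers other than Ovgp1. The same holds for the genes named as detected only through the Gen arrays, other than Dmbt1, Fam24b and Cxcl15. Alternatives changed the scaling (quantile, or none), the background (normexp, offset 50, or a floor), the probes used (dim probes dropped, outlier spots kept, all probes of a gene averaged), the test (trend and robust eBayes, the methods' t-test, a replicate block) and the arrays (each left out in turn). The number of mice limits the precision. Results for some genes that the naming rule would give are left out here.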

Additional observations from a re-analysis of the deposited data

Results flagged for a closer look

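Among 28 groups of 4 arrays tested, 2 for each of the 14 probes, Coch probe 1 in Gen-treated mice had 1 array far from the others. Gen mouse 2, at 97.7, lay apart from the next lowest mouse, at 421, by 0.913 of the whole range of the group on the log2 scale, above Dixon's critical value for 4 arrays. Chance gives about 1 such group in 20. Coch probe 2 had the same mouse lowest, at 36.1 against 116 for the next. Without this mouse the log2 fold change of Coch was -2.17.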

How the results depend on the processing

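The median log2 fold change of the 8 genes was -2.76, and over the alternatives it was between -2.95 (without Gen replicate 1) and -2.08 (floor). All 136 values of single genes under the alternatives were negative, and 128 lay within the spread between replicates of the values given. The other 8 were Tmem132e without scaling (-1.33), Sorcs3 (-1.15), Spock1 (-1.51) and Cuzd1 (-2.12) after normexp, the same genes with a floor of 65.9 (-1.18, -1.14 and -1.81), and Spock1 with the mean of its probes (-1.98). Most of the 136 values could hardly move. The filter on dim probes, the intensity trend and the replicate block leave a gene's fold change as it is, and no spot of the 8 genes was an outlier. Leaving out 1 of 4 arrays shifts a group mean by less than the spread used here. The count of 128 is therefore no measure of how firm the values are. The calls among the relatives depended on the setting. The 2 called lower were 0 after quantile normalization, without scaling, after normexp, with the filter on dim probes, with the floor, with the methods' t-test and with the replicate block, and 0 to 1 with an array left out, each array lowering the count. The 2 called higher were 4 with the intensity trend, 1 without scaling and 0 under the other 6 of these settings, and 0 to 1 with an array left out, again with each array. The adjusted p was 0.023–0.435 for Atp1b1, 0.0072–0.195 for Dmbt1, 0.0314–0.402 for Gpr37 and 0.031–0.33 for Itpripl1. The 12 markers called higher were 1 after quantile normalization, 2 after normexp or the filter on dim probes, and 0 with the floor, the t-test or the replicate block, and the 0 called lower were 3 with the intensity trend or with the mean of all probes. With an array left out, the markers called higher were 0 to 9, with 0 without control replicate 1 or Gen replicate 1, 2 or 3 and 5 without control replicate 2, and those called lower were 0 to 1, the 1 without Gen replicate 4. At an unadjusted p under 0.05 the relatives numbered 16, with 9 without scaling, 12 with the replicate block and 9 (without control replicate 4) to 23 (without control replicate 1) with an array left out. The share of all genes at that level was not computed. The 21 detected neighbors had 0 calls under each setting. Same-numbered arrays correlated at -0.12 to 0.04 in their deviations. This gives no sign that replicate numbers pair the mice, but cannot exclude it. The paper describes the controls as littermates, and litter was not part of any fit. The cause of the differences between settings was not tested. With 4 mice per group and dim probes near background, smaller changes among the relatives were not detectable.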
